A study of Bos taurus with 4 samples.

Results

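The FHL, PDLIM and CSRP proteins are built from LIM domains, zinc-binding folds that hold proteins together, and the transcripts of 9 of them were sought in bovine muscle: FHL1, FHL2, FHL3, PDLIM1, PDLIM3, PDLIM5, PDLIM7, CSRP3 and LDB3. Their probes were found through the RefSeq accession that links each array probe to a gene symbol, and each gene was represented by its brightest probe. Of the 9 genes, 6 had a matched probe, among 6376 genes with a probe above background. FHL1, PDLIM3 and PDLIM5 had no matched probe and were not analysed here. Each of the 6 genes had 1 probe, printed as 2 spots per array, and its signal stood clear of background for both breeds on every array. In what follows, LIM written alone is the Limousin breed, and the protein fold is always called the LIM domain.

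The LIM domain binds other proteins rather than DNA, and proteins that carry it act as adaptors. In striated muscle many of them sit at the Z-disc, the plate where the actin filaments of neighbouring sarcomeres are anchored by alpha-actinin, and some also enter the nucleus and act beside transcription factors. FHL proteins consist almost wholly of LIM domains. PDLIM proteins, to which LDB3 belongs, join a PDZ domain that binds alpha-actinin or tropomyosin to one or more LIM domains. CSRP3, the muscle LIM protein, is a small protein of the Z-disc and the nucleus and is known as a sensor of stretch in heart muscle.

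Each of 4 two-colour arrays carried RNA of 1 Limousin bull (LIM, a beef breed), labelled with Cy5, and RNA of 1 Holstein-Friesian bull (HF, a dairy breed), labelled with Cy3. The semitendinosus, a muscle of the hind leg, was sampled after slaughter at 15 months of age, from its central part and without visible fat or connective tissue. The study used the breeds to ask which genes differ between the muscle of beef and dairy cattle. Bulls were measured singly and not pooled, and the small number of arrays sets a limit to the precision.

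The arrays held 42990 spots for bovine transcripts. In LIM channels 32513 to 33527 of them cleared the background, against 27102 to 28769 in HF channels. The dyes were never swapped, so a breed effect and a dye effect cannot be told apart. Every ratio divides the signal labelled LIM (Cy5) by the signal labelled HF (Cy3). The tissue label was checked against ACTA1, CKM, MYH1 and MYH2, defining genes of skeletal muscle, whose probes all lay at or above percentile 99.5 of the signals in every bull of both breeds. The fifth defining gene, TNNT3, had no matched probe. The RNA came from whole muscle, so fewer cells of a type and less RNA per cell cannot be told apart.

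The LIM-domain transcripts split by gene, and all directions given here follow the dye labels. Directions that follow from those labels are the opposite of the study's text or tables for FHL2, FHL3, CSRP1, CSRP2, FBLIM1, TRIM63 and GSK3B. For GSK3B the study's real-time qPCR, run apart from the arrays, also gave a lower level in LIM. The ratios of all 6 genes, PDLIM7 and LDB3 included, rest on the same labels, and which direction is right was not tested. With the arrays centred on their median in place of loess, FHL3 (0.21) and CSRP1 (0.15) had positive ratios. Both lay below the median of 0.25 over all probes tested with that centring. PDLIM7 and LDB3 were higher in the channel labelled LIM, at 2.62-fold and 1.84-fold the HF signal, and passed the test. CSRP3, PDLIM1, FHL3 and FHL2 had negative ratios that missed the threshold of an adjusted p under 0.05. Of the 6 genes, 2 (33.3%) were called higher, against 2.96% of all 15855 probes tested, and 0 were called lower, against 2.51%. With the sign of all ratios turned, 2 genes would be lower, against 2.96%, and 0 higher, against 2.51%. At an unadjusted p under 0.05 limma counted 4 lower genes, against 12.2% of all probes tested, and the methods' t-test with its own thresholds called 2 lower, against 4.17%. The median log2 ratio of the 6 genes was -0.34, beside 0.018 over all probes tested.

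**Figure D1:**
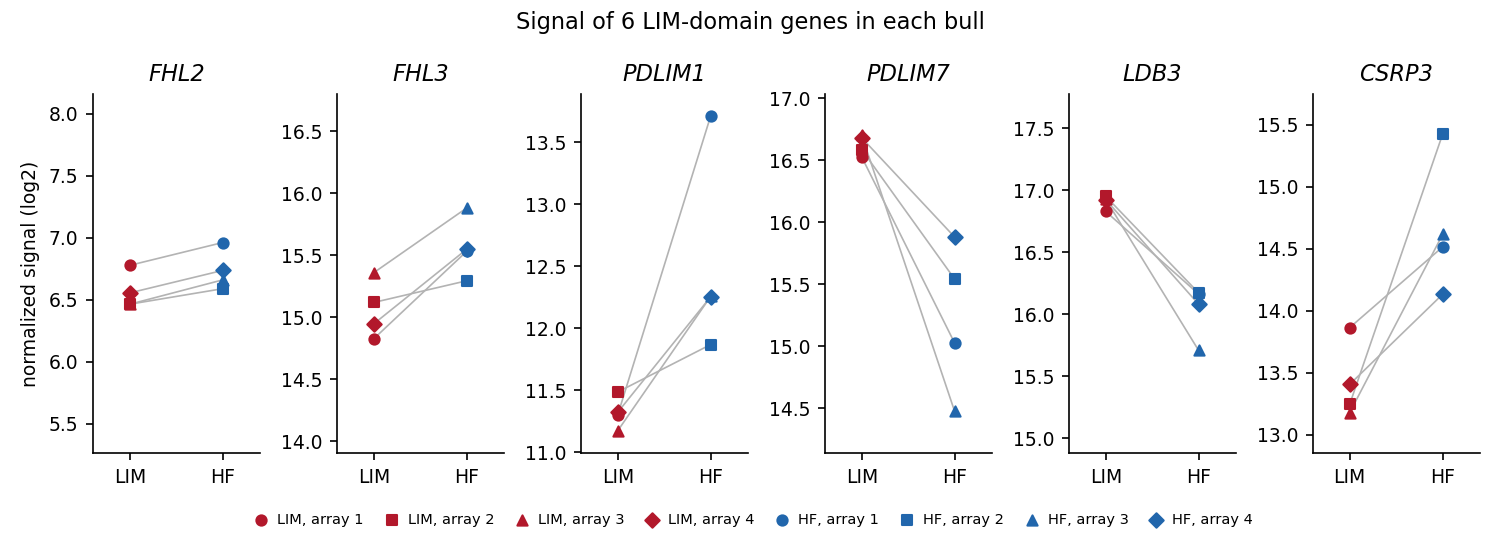
Normalized log2 signal (vertical axis) of the 6 genes in each LIM and each HF bull, with lines joining the pair of bulls on 1 array; every panel spans the same number of log2 units. The LIM bulls lie above all HF bulls for PDLIM7 and LDB3 and below all of them for PDLIM1 and CSRP3, and the breeds overlap for FHL2 and FHL3.

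The signals gave a first view of how strongly each probe lit up in this muscle. A percentile here is the rank of a probe's normalized signal among all 21475 probes in the same bull. It depends on the probe as well as on the mRNA, so the percentiles do not order the genes by amount. LDB3 lay between percentiles 99.88 and 99.92 in LIM bulls and between 99.65 and 99.78 in HF bulls. PDLIM7 lay between 99.84 and 99.87 in LIM bulls, against 98.9 to 99.7 in HF bulls. These were among the brightest probes of the array in every bull.

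FHL3 was at percentiles 99.2 to 99.5 in LIM bulls and 99.4 to 99.7 in HF bulls, and CSRP3 at 97.4 to 98.3 in LIM bulls and 98.6 to 99.5 in HF bulls. PDLIM1 was at 91.2 to 92.6 in LIM bulls and 94.1 to 98.2 in HF bulls. FHL2 stood apart from the other 5 genes, at percentiles 36.2 to 45.0 in LIM bulls and 40.3 to 48.7 in HF bulls. Its spots had raw intensities of 69 to 101.5 in the LIM channel over a local background of 34.75 to 38.25, and of 45.5 to 77.5 in the HF channel over a background of 28.75 to 31.5. On every array the raw FHL2 intensity was higher in the LIM channel, also above its local background. Its ratio was thus negative only after the dyes were balanced. This was not particular to FHL2. The same held for FHL3 on every array, for PDLIM1 on arrays 2 to 4 and for CSRP3 on arrays 1, 3 and 4. Duplicate spots of FHL2 differed by up to 0.26 in log2 ratio on 1 array, against at most 0.13 for any of the other 5 genes.

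**Figure D2:**
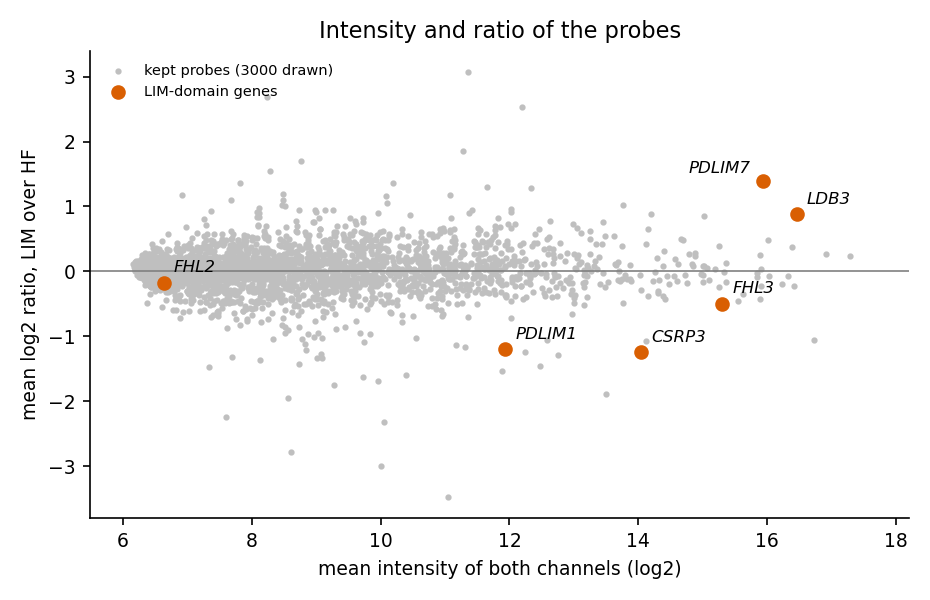
Mean log2 intensity of both channels (horizontal axis) against the mean log2 ratio of LIM over HF (vertical axis), with 3000 drawn probes in grey and the 6 genes in orange. FHL2, at a log2 intensity of 6.64, lies among the dim probes, and LDB3 and PDLIM7, at 16.45 and 15.93, lie at the bright end.

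FHL2, a LIM-domain cofactor of transcription factors that also binds titin in heart muscle, had the smallest ratio. Its log2 signals were 6.78, 6.46, 6.46 and 6.55 in the LIM bulls of arrays 1 to 4, against 6.96, 6.59, 6.66 and 6.74 in the HF bulls. The breeds overlapped, although the LIM bull was the lower one of the pair on each array. The log2 ratio was -0.17 ± 0.06 (moderated SE, n = 4, 95% confidence interval -0.31 to -0.03), a 1.13-fold higher signal in HF, with an adjusted p of 0.133 in limma. The offset of 50 that is added to every signal shrinks the ratio of so dim a probe. With an offset of 16 the ratio was -0.27, with an adjusted p of 0.110 in limma. The scanner software's own processed signals gave -0.70, with an adjusted p of 0.0406. Those signals also differ in background correction and dye balance, and the part of the offset in the gap was not tested.

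FHL3, an actin-binding member of the family that is abundant in skeletal muscle, was bright and had a larger ratio. It had log2 signals of 14.83, 15.12, 15.36 and 14.95 in LIM bulls and 15.53, 15.29, 15.88 and 15.55 in HF bulls. The breeds overlapped through 1 bull of each, the LIM bull of array 3 at 15.36 and the HF bull of array 2 at 15.29. The ratio was -0.50 ± 0.10 (n = 4, 95% confidence interval -0.76 to -0.24), 1.41-fold higher in HF, with an adjusted p of 0.0580. Its ratios per array were -0.71, -0.17, -0.52 and -0.60, so array 2 carried the smallest difference.

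PDLIM1, an adaptor between alpha-actinin and signalling proteins that is found on stress fibres and Z-discs, varied most between arrays. Its log2 signals were 11.30, 11.49, 11.17 and 11.32 in LIM bulls, against 13.71, 11.87, 12.26 and 12.25 in HF bulls. All LIM bulls lay below all HF bulls, and the HF bull of array 1 stood above the other 3. The SD was 0.13 over the LIM bulls and 0.81 over the HF bulls. The ratio was -1.20 ± 0.33 (n = 4, 95% confidence interval -2.04 to -0.37), 2.30-fold higher in HF, with an adjusted p of 0.0965. Without array 1 it was -0.80.

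PDLIM7, known as Enigma, binds tropomyosin through its PDZ domain and protein kinases through its LIM domains. It had log2 signals of 16.52, 16.58, 16.70 and 16.68 in LIM bulls, against 15.03, 15.54, 14.47 and 15.88 in HF bulls. The LIM bulls lay close together (SD 0.08) and above all HF bulls, which spread over more than 1 log2 unit (SD 0.61). The ratio was 1.39 ± 0.24 (n = 4, 95% confidence interval 0.77 to 2.01) with an adjusted p of 0.0441 in limma. It was positive on 4 of 4 arrays, at 1.50, 1.04, 2.22 and 0.80, and lay at percentile 99.9 of the ratios of all probes tested. The call was lost without each array in turn (adjusted p 0.0748 to 0.114) and without the filter on dim probes (0.0631).

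LDB3, known as ZASP or Cypher, is a Z-disc protein that holds alpha-actinin and protein kinase C and whose mutations cause muscle disease in humans. Its log2 signals were 16.83, 16.95, 16.93 and 16.92 in LIM bulls and 16.16, 16.17, 15.71 and 16.08 in HF bulls. The LIM bulls again lay close together (SD 0.05, against 0.22 in HF bulls), with no overlap between the breeds. The ratio was 0.88 ± 0.11 (n = 4, 95% confidence interval 0.61 to 1.14), with an adjusted p of 0.0261, the smallest of the 6 genes. It was positive on 4 of 4 arrays, at 0.67, 0.78, 1.22 and 0.84, and lay at percentile 99.0 of all probes tested. The call was lost without each array in turn, at an adjusted p of 0.0561 to 0.102.

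The ratios of PDLIM7 and LDB3 had their highest value on the same array, array 3, whose HF bull had the lowest HF signal for both genes. Both probes were at the bright end of the scale, and no spot on the arrays was saturated.

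CSRP3, a Z-disc protein and partner of the myogenic factor MyoD, had the most negative mean ratio of the 6 genes. Its log2 signals were 13.86, 13.25, 13.18 and 13.41 in LIM bulls, against 14.51, 15.42, 14.61 and 14.13 in HF bulls. All LIM bulls lay below all HF bulls, and the HF bull of array 2 was the highest. The ratio was -1.25 ± 0.28 (n = 4, 95% confidence interval -1.94 to -0.55), 2.37-fold higher in HF. It missed the threshold with an adjusted p of 0.0651. It passed under 7 of the 17 alternative settings, with an adjusted p between 0.0331 and 0.215 over all 17. Among the 7 were the methods' t-test with its own unadjusted threshold, where the adjusted p was 0.215, and 2 settings with the same ratios, the processed signals and the series table. The ratio was negative on 4 of 4 arrays, at -0.65, -2.18, -1.44 and -0.73.

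**Figure D3:**
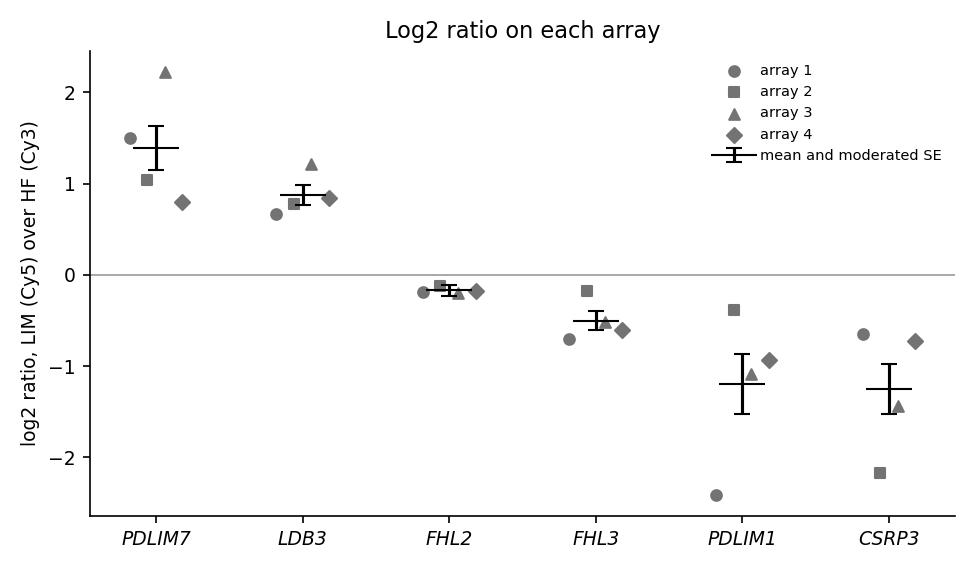
Log2 ratio of LIM (Cy5) over HF (Cy3) on each of the 4 arrays (symbols) for the 6 genes in the order of their means, with the mean and its moderated SE (bars). PDLIM7 (1.39) and LDB3 (0.88) lie above 0 on every array and the other 4 genes below 0 on every array, with the widest spread for PDLIM1.

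Among the 6 genes, 4 had breeds that did not overlap. For 2 of them, PDLIM7 and LDB3, all LIM bulls were above all HF bulls, which held for 9.48% of all probes tested. For the other 2, PDLIM1 and CSRP3, all LIM bulls were below, which held for 7.35%. All 6 genes kept 1 sign over the 4 arrays. The share of all probes that did so is not given here, so this count is not read as a trait of these genes. The range of the ratio over the arrays was 0.07 for FHL2, 0.53 for FHL3, 0.55 for LDB3, 1.42 for PDLIM7, 1.53 for CSRP3 and 2.03 for PDLIM1, beside a median of 0.43 over all probes tested. LDB3 and FHL3 were thus close to the usual spread, and PDLIM7, CSRP3 and PDLIM1 were wider.

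The genes were also set against each other within each array, a comparison that a shift common to the whole array leaves unchanged. Of 15 pairs, 12 had a difference of the same sign on all 4 arrays and 10 had ratio ranges that did not overlap. PDLIM7 and LDB3 were positive on every array and the other 4 genes negative. Each pair across that split was therefore bound to enter both counts and adds nothing to those signs. The differences of PDLIM7 and LDB3 from PDLIM1 and CSRP3 given below are of that kind. With 4 arrays the exact two-sided sign-flip permutation test cannot go below 0.125, and those 12 pairs reached it (0.156 after Benjamini-Hochberg adjustment over the 15 pairs). The log2 ratio of PDLIM7 exceeded that of PDLIM1, from the same family, by 2.59 ± 1.20 (SD, n = 4) and that of CSRP3 by 2.64 ± 0.98. The ratio of LDB3 exceeded that of PDLIM1 by 2.08 ± 0.81 and that of CSRP3 by 2.12 ± 0.80. PDLIM7 and LDB3 differed by 0.52 ± 0.49, with a range of -0.04 to 1.01 that included 0. PDLIM1 and CSRP3 had almost equal means, with a difference of 0.05 ± 1.47, but over the single arrays the difference ran from -1.76 to 1.79.

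The ratios of the bright genes depended on how the dyes were balanced. Loess removes a difference between the dyes that changes with intensity, while median centring moves all probes of an array by the same amount. With median centring the median ratio of all probes tested was 0.25. Relative to that shift, PDLIM7 was at 1.85 and LDB3 at 1.35, both larger than with loess. FHL2 was at -0.58, PDLIM1 at -0.83 and CSRP3 at -0.82. FHL3 came to -0.04 relative to the shift, and its ratio before subtracting it was 0.21, with an adjusted p of 0.579. The difference between PDLIM7 and FHL3, genes of like brightness, was 1.89 with loess and 1.90 with median centring, and that between LDB3 and FHL3 was 1.38 and 1.39. For FHL2 and FHL3, which differ most in brightness among the negative genes, the difference of 0.33 turned to -0.54.

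**Figure D4:**
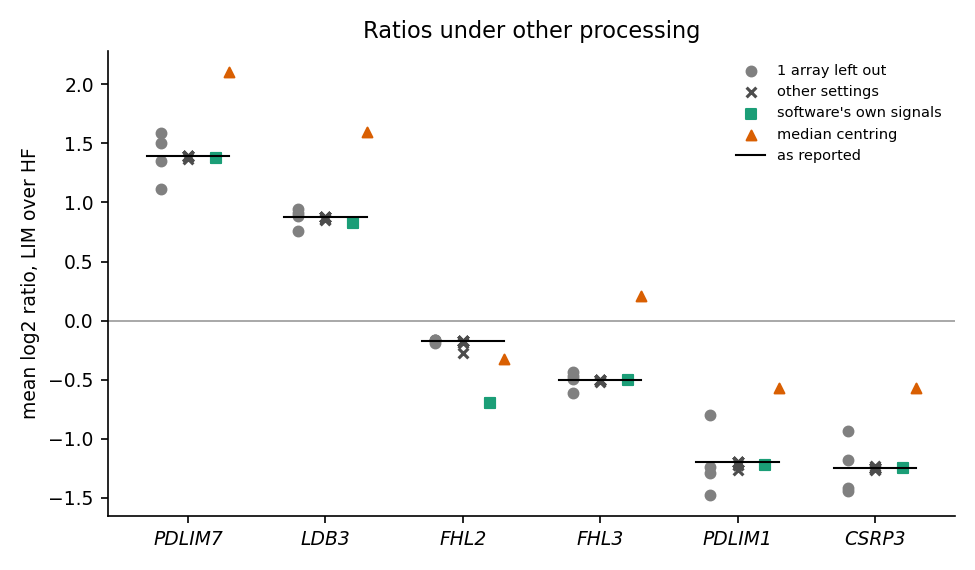
Mean log2 ratio of LIM over HF (vertical axis) of the 6 genes as reported (black lines) and under other settings (symbols). FHL3 crosses 0, at 0.21, with median centring, and FHL2 falls to -0.70 with the software's own signals.

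Fibre-type genes were read beside these results. Of 11 slow-twitch genes listed, 8 were measured, all 8 with negative ratios, 1 of them past the test, and with a median of -0.87. Their medians on arrays 1 to 4 were -1.76, -0.48, -0.78 and -0.18. Their summed linear signal lay between 203744 and 317697 in LIM bulls and between 354668 and 787212 in HF bulls. CSRP3, which slow fibres of rodents hold in larger amounts, was most negative on array 2, where the slow list had -0.48, and PDLIM1 was most negative on array 1, where the list had -1.76.

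Of 12 fast-twitch genes 7 were measured, 2 rose, 0 fell and 5 did not pass, with 5 positive and 2 negative ratios (MYH2 at -0.51 and MYH1 at -0.04) and a median of 0.48. Their medians on arrays 1 to 4 were 0.51, 0.33, 0.56 and 0.29, and their summed signal lay between 798685 and 891477 in LIM bulls and between 643650 and 709845 in HF bulls. Skeletal muscle fibre genes (8 of 14 measured, 2 higher, 0 lower) had a median of 0.16. The part of fibre types in the ratios of the 6 genes was not tested.

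PDLIM1 and PDLIM7 are also made in smooth muscle, fibroblasts and endothelium. Of 10 smooth muscle and pericyte genes 7 were measured, all with negative ratios, 1 past the test, and with a median of -0.21. Their summed signal was 3644 to 5312 in LIM bulls and 4973 to 5952 in HF bulls. Fibroblast genes (8 of 9 measured, 1 higher, 1 lower) had a median of 0.33, with summed signals of 25899 to 46252 in LIM bulls and 14045 to 28141 in HF bulls. The list was split, with 5 positive and 3 negative ratios. COL3A1 (2.53) was called higher and OSR1 (-1.28) lower, and PDGFRA (-0.27) and DCN (-0.23) were the other negative ones. Endothelial genes (6 of 10 measured, none called, 0 at an unadjusted p under 0.05 in limma) had a median of -0.16.

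Adipocyte genes (5 of 8 measured, 1 lower, 3 at an unadjusted p under 0.05 in limma) had a median of 0.30. Their ratios were split, with 4 positive and 1 negative, that of CFD (-1.17), the gene called lower. Macrophage genes (5 of 11 measured, none called, 3 at an unadjusted p under 0.05 in limma) had a median of -0.62, with 5 negative ratios. Erythrocyte genes (3 of 7 measured, none called, 0 at an unadjusted p under 0.05 in limma) had a median of -0.09, with 1 positive and 2 negative ratios. The part of these cells in the ratios was not tested.

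Other LIM-domain genes of the cytoskeleton gave a family background. Of 36 listed, 23 were measured, 1 rose, 1 fell and 21 did not pass, with a median of -0.10 and ratios from -1.65 to 0.83. TES, a focal adhesion protein, fell by 1.65 ± 0.11 on the log2 scale (n = 4, adjusted p 0.0187). Its log2 signals were 8.74, 8.49, 8.16 and 8.72 in LIM bulls, against 10.18, 10.50, 9.80 and 10.24 in HF bulls, without overlap. FBLIM1, which links filamin to adhesion sites, rose by 0.83 ± 0.11 (adjusted p 0.0268), with log2 signals of 11.55, 11.82, 11.81 and 11.85 in LIM bulls and 10.88, 10.70, 10.87 and 11.24 in HF bulls. Both calls were lost without each array in turn. The study listed both TES and FBLIM1 from these samples, so neither call is independent evidence of a direction. For FBLIM1 the study gives the opposite direction to the one given here.

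The relatives of CSRP3 had ratios of the same sign. CSRP1 had log2 signals of 8.87, 9.20, 8.82 and 9.24 in LIM bulls and 9.35, 9.36, 9.34 and 9.56 in HF bulls, with a ratio of -0.37 ± 0.08 (adjusted p 0.0688). CSRP2 had 7.24, 7.38, 7.19 and 7.37 in LIM bulls and 7.78, 7.39, 7.85 and 7.98 in HF bulls, with a ratio of -0.45 ± 0.13 (adjusted p 0.0978). Neither passed the test. With median centring CSRP1 was at 0.15 (adjusted p 0.499 in limma), below the median of 0.25 over all probes tested. Of these 3 relatives CSRP3 had the ratio farthest from 0, at -1.25.

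**Figure D5:**
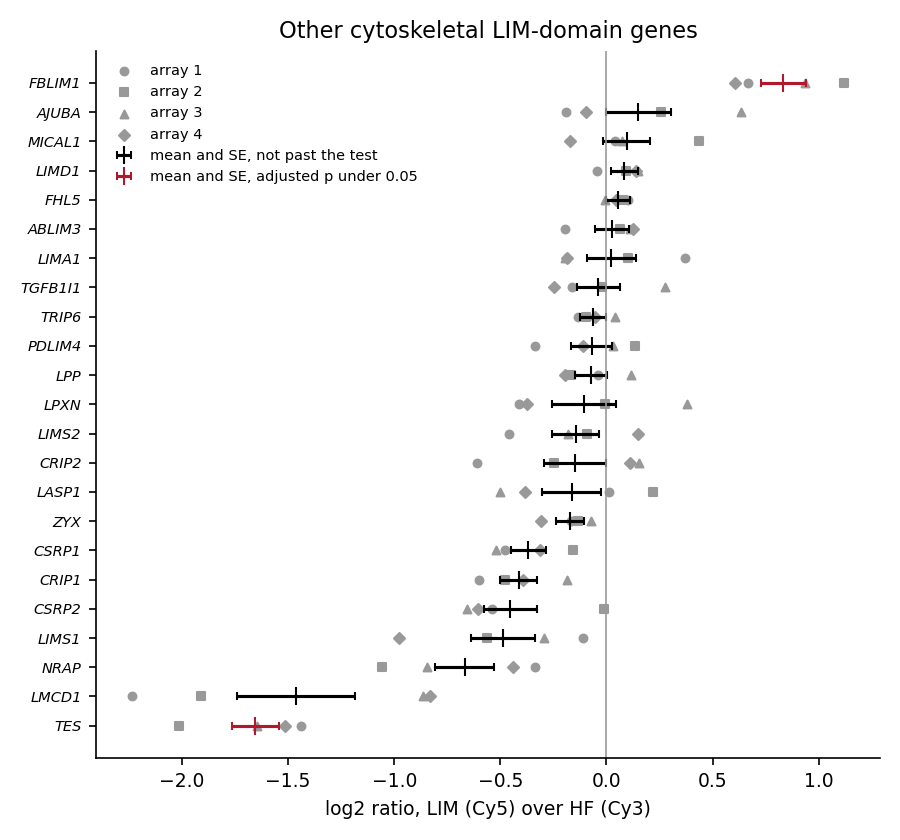
Log2 ratio of LIM (Cy5) over HF (Cy3) (horizontal axis) of the 23 other cytoskeletal LIM-domain genes measured, with the 4 arrays as symbols and the mean and its moderated SE as bars, red where the adjusted p was under 0.05. TES (-1.65) and FBLIM1 (0.83) passed the test and the other 21 genes did not.

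The proteins that surround the 6 genes' products were read in the same way. Of 41 Z-disc and sarcomere scaffold genes, 14 were measured and 0 passed the test (6 at an unadjusted p under 0.05 in limma, and 4 with the methods' t-test with its own thresholds), with a median of -0.06. Over all probes tested, 27.3% had an unadjusted p under 0.05 and 9.33% were called by the methods' t-test. The Z-disc genes with the smallest p were VCL, the adhesion protein vinculin, at 0.73 ± 0.14 (adjusted p 0.0546), and TRIM63, the ubiquitin ligase MuRF1, at -1.07 ± 0.23 (0.0625). For TRIM63 the study's text gives the opposite direction. VCL and TRIM63 each passed under 6 of the 17 alternatives, the methods' t-test with its own unadjusted threshold among them.

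Of 36 signalling partners and transcription factors known to bind the family or act through it, 20 were measured, 2 rose, 0 fell and the median was 0.23. GSK3B, a kinase of insulin and Wnt signalling, rose by 0.40 ± 0.07, and ITGA7, the laminin-binding integrin chain of muscle, by 0.36 ± 0.06, each with an adjusted p of 0.0441. For GSK3B the study's text and its real-time qPCR give the opposite direction, lower in LIM. The calls of GSK3B and ITGA7 were lost under 8 and 12 of the 17 alternatives, the loss of each array among them.

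Genes with ratios most like those of PDLIM7 and LDB3 were found by the mean absolute difference of the log2 ratio over the 4 arrays, as a description. Nearest to PDLIM7 were PGK1, a glycolytic enzyme, at a difference of 0.12 (ratio 1.27 ± 0.24), NDRG2 at 0.22 (1.52 ± 0.18) and SPSB2 at 0.28 (1.34 ± 0.12). Nearest to LDB3 were SRPX at 0.09 (0.81 ± 0.08), TSPAN3, a membrane protein of the tetraspanin family, at 0.09 (0.78 ± 0.12), and GTF2IRD2 at 0.11 (0.82 ± 0.15). LDB3 had closer neighbours than PDLIM7, whose ratio was among the most extreme of the array.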

How the data were processed

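The samples were 4 two-colour Agilent arrays, per the labels 4 biological replicates, with 1 LIM (Cy5) and 1 HF (Cy3) bull each. Nothing beyond the labels tells how bulls were paired. Per the file headers the authors quantified the spots with Feature Extraction 10.7.3.1. The deposited intensity values are median spot and local background signals, not normalized. The deposited processed signals and log10 ratios are background-subtracted and dye-normalized by that software. The series table held the same log10 ratios (largest difference 0, column medians 0, 0, 0 and 0), so its scale and direction were those of the scanner. The deposited columns of the software's own p-values were not used. The files used here gave the median, not the mean, foreground.

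The normexp method of limma (offset 50) corrected the background. Ratios were normalized by loess within arrays with control spots at weight 0, and 5 to 10 non-uniform spots per array were left out. Values on the log2 scale were computed from the deposited intensity values. Spots of a probe were averaged (21475 probes), and a probe was kept where 1 channel had all its spots well above background on 3 or more arrays (15855 probes). Ratios were tested against 0 with limma 3.58.1 (lmFit and eBayes, two-sided) in R 4.3.3, and p-values were adjusted by Benjamini-Hochberg over the 15855 probes. The p-values measure the spread between these 4 arrays. Signals per bull are channel values after loess and Aquantile normalization. All arrays lay on 1 slide, so no slide block was possible. Arrays correlated at r from 0.40 to 0.60 across probes, which are not independent replicates.

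Of 868 probes called, 470 were higher and 398 lower, and 4326 had an unadjusted p under 0.05. Accessions matched a RefSeq gene table (assembly ARS-UCD2.0) for 8297 probes and 7788 symbols. The design of the array used another build, so no coordinates are given, and no probe, protein or promoter sequences were used here. The fit was tested on simulated data.

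The 9 genes and 12 gene lists were chosen with earlier results of these data known. Named besides them were in each list at most 4 genes, those of largest ratio past the test (the 2 with the smallest p where none passed), from the LIM-domain, Z-disc and partner lists, the study's CSRP1, CSRP2 and TES, and the 3 genes most like each called gene. There were 17 alternative settings: offset 16, processed signals, median centring, centring on the kept probes, scale normalization, other filters on dim probes, an intensity trend, the methods' t-test (p 0.05 and a fold of 1.3, or after adjustment), separate channels, the series table, the mean of all probes, and each array left out.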

Additional observations from a re-analysis of the deposited data

Results flagged for a closer look

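None of 26 values over the 4 bulls of a breed or the 4 arrays passed Dixon's test for a bull or array far from the others, where about 1.3 would by chance.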

How the results depend on the processing

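The means of PDLIM7, LDB3, CSRP3, PDLIM1 and FHL2 kept their sign under all 17 alternatives, each of which balances the dyes in some way. Many of these could not turn a sign. The filters on dim probes, the intensity trend, the methods' t-test, separate channels and the mean of all probes left these means unchanged. The series table repeated the ratios of the processed signals. The mean of FHL3 turned positive only with median centring (0.21), as did that of CSRP1 (0.15). Both lay below the median of 0.25 over all probes tested with that centring. Leaving out each array gave 0 to 51 called probes (51 without array 3, of which 42 were among the 868), and in each case 0 of the 6 genes, 0 other LIM-domain genes and 0 partner genes past the test, with ratios of 1.11 to 1.59 for PDLIM7 and 0.76 to 0.95 for LDB3. With offset 16, 1 gene was lower, 4 other LIM-domain genes and 3 Z-disc genes passed. The scanner's processed signals and the series table called 1336 and 1347 probes, and each gave 2 lower genes (FHL2 and CSRP3), 2 Z-disc genes and 1 partner gene. Median centring called 3800 probes, 92.8% of them higher against 54.1% with loess, with 3 Z-disc and 14 partner genes. Without the filter on dim probes 1 of the 6 genes was higher. With a filter that asked for both channels to clear background on every array, 2 genes were lower (FHL3 and CSRP3), and 4 other LIM-domain and 3 Z-disc genes passed. An intensity trend with a robust prior called 1310 probes, 1 lower gene, 4 other LIM-domain genes and 3 Z-disc genes. The methods' t-test with its own p and fold called 1479 probes, 2 lower genes, 5 other LIM-domain, 4 Z-disc and 5 partner genes, and after Benjamini-Hochberg adjustment 1 probe, 0 higher genes (adjusted p 0.184 for PDLIM7 and 0.139 for LDB3), 0 other LIM-domain and 0 partner genes. The fit of separate channels without a replicate block for the pairing on an array called 1091 probes, 1 lower gene (CSRP3) and 2 Z-disc genes. PDLIM1 did not pass under any of the 17 (adjusted p 0.0594 to 0.335). Dimness limits FHL2, whose ratio ranged from -0.70 to -0.16.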

Other observations

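The spread between bulls was wider in the HF than in the LIM channel for all 6 genes, most of all for PDLIM1 (SD 0.13 in LIM bulls and 0.81 in HF bulls) and PDLIM7 (0.08 in LIM bulls and 0.61 in HF bulls). The same order held for 67.0% of all probes tested, whose median SD was 0.13 over LIM bulls and 0.17 over HF bulls. Breed and dye cannot be told apart here either, and the difference in spread was not tested.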
